A study of Oncorhynchus mykiss with 13 samples.

Results

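Of the 9023 rainbow trout cDNA clones of the array, 4 clones named in the study for enzymes of detoxification or peroxide reduction are described here. They were clone tcay0023.a.19 (#191), similar to a zebrafish sulfotransferase, clone tcag0002.n.03 (#202 cyp1a3), corresponding to the trout gene, clone tcbk0045.m.11 (#214 glutathione S-transferase P-like), most similar to the hamster protein, and clone tcad0009.n.15 (#227 glutathione peroxidase 4-like), most similar to the pig protein. The numbers are those of the clustering of the study. These clones were chosen by measured values: the study listed them after SAM tests, a permutation-based method, had found a difference between ovarian stages on the same arrays. Stage differences of these clones are therefore given as a description, with no p-value, and calls by limma are only counted beside those of the whole array. All 4 clones were above 0 on every array and belonged to the 8077 clones kept.

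Whole ovarian tissue of 13 separate females of an autumn-spawning strain was used, in their first reproductive season at 2 years of age. Late vitellogenesis (n = 3, females 2, 3 and 4) is the end of yolk uptake, when the oocyte nucleus, or germinal vesicle, is not yet visible. Post-vitellogenesis (n = 4, females 13, 14, 15 and 31) follows before any sign of meiosis resumption, and the germinal vesicle may then lie at the periphery of the oocyte, as the label of female 14 states. Oocyte maturation (n = 6, females 25 to 30) comes after meiosis resumption, around germinal vesicle breakdown. Each female is named by the number in the title of her sample, and the titles do not say what it counts. The numbers run in blocks by stage, except that 31 follows those of the maturing females. Whether this order bears on the values was not tested. No fish received a treatment, and stage and sampling time go together. RNA of each female was hybridized to 1 nylon membrane, and each value is the ratio of the spot signal to the median of its array, so that a ratio of 1 is the median spot.

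Sulfotransferases add a sulfonate group to steroids, catechols and foreign compounds, which makes them more soluble and, for steroids, usually inactive at the receptor. CYP1A enzymes oxidize planar aromatic compounds as well as estrogens, and their genes are induced in fish through the aryl hydrocarbon receptor. Glutathione S-transferases of the P class couple glutathione to electrophiles, whereas glutathione peroxidase 4 uses glutathione to reduce lipid hydroperoxides within membranes.

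The 3 clones of the conjugating and oxidizing enzymes were lower in oocyte maturation than in the 7 earlier females, 2.08-fold for the sulfotransferase-like clone, 1.56-fold for cyp1a3 and 1.67-fold for the glutathione S-transferase P-like clone. In contrast, the glutathione peroxidase 4-like clone was 2.74-fold higher. The study had placed the first 3 in its cluster 1, high in late vitellogenesis and low in maturation, and the last in its cluster 2, high in maturation. In whole tissue, fewer cells of a type and less RNA per cell cannot be told apart.

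On the arrays, 498 to 932 spots were listed at 0, and the lowest correlation of log2 ratios between arrays of 1 stage was 0.913, between maturing females 28 and 30. The arrays of females 26 and 30 had the most spots at 0 (878 and 932), against 498 to 689 on the others, and that of female 28 had 630. The granulosa cell marker ovarian aromatase (cyp19a1) was the only cell type marker named among the listed clones. Clone tcac0004.f.21 of this gene ran from 14.2 to 19.2 in late vitellogenesis, from 2.24 to 13.4 in post-vitellogenesis and from 1.24 to 2.09 in maturation. The second clone of this gene, tcbk0013.n.16, ran from 6.98 to 11.9, from 0.963 to 8.99 and from 0.315 to 0.650. The late vitellogenesis and post-vitellogenesis females overlapped for the second clone and not for the first. This marker thus was lower in maturation, as were the 3 cluster 1 enzymes. From late vitellogenesis to post-vitellogenesis its clones had log2 differences of -1.65 and -1.82 (standard errors 0.40 and 0.49). Those of the enzymes were -0.56 (sulfotransferase-like), -0.12 (cyp1a3) and -0.16 (glutathione S-transferase P-like), with standard errors of 0.19, 0.19 and 0.18. The study reports a fall of aromatase RNA over these stages, measured in ovarian tissue. Such a level does not separate the number of granulosa cells from the aromatase RNA in each cell. The part of this marker in the values of the enzymes was not tested. Markers of oocytes, theca cells and blood were not analysed here.

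**Figure D1:**
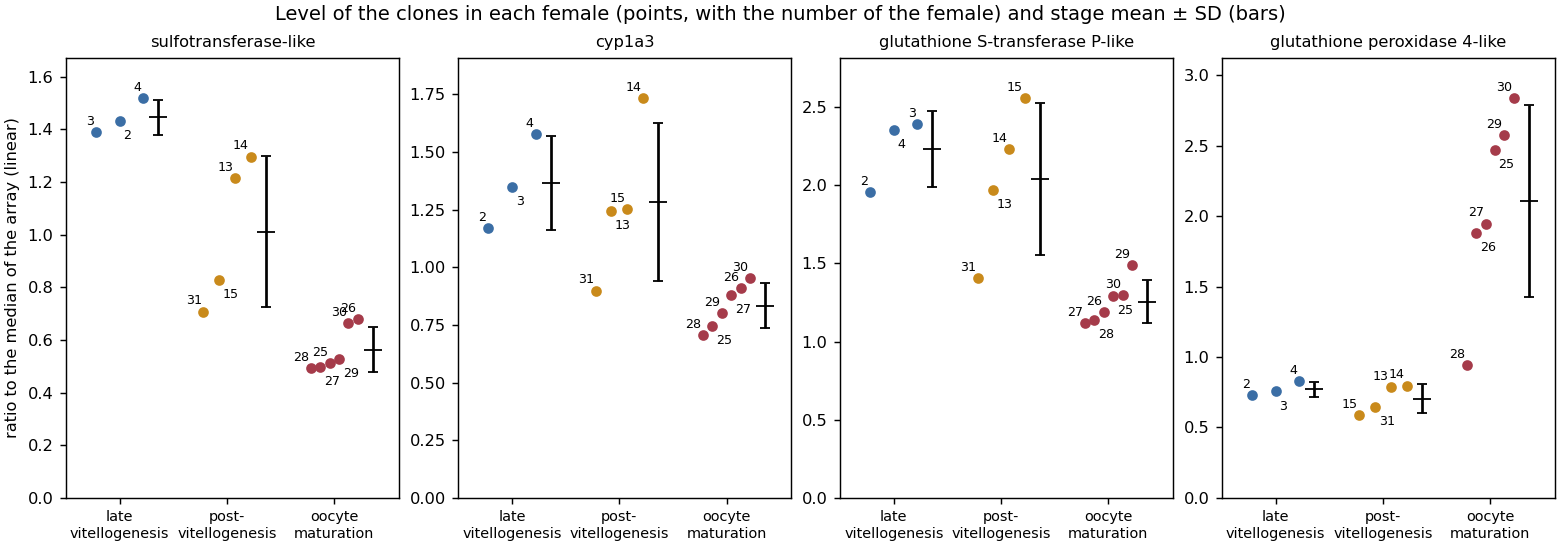
Ratio to the array median (linear axis, from 0) of the 4 clones in each of the 13 females, with the female's number beside each point and the mean ± SD of the stage as a bar at its right. Glutathione peroxidase 4-like ratios in maturation spread from 0.943 in female 28 to 2.84 in female 30, and post-vitellogenesis female 31 lies near the maturing females for the other 3 clones.

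The sulfotransferase-like clone had ratios of 1.43, 1.39 and 1.52 in late vitellogenesis females 2, 3 and 4 (mean 1.45 ± 0.0667, SD, n = 3). In post-vitellogenesis the ratios were 1.21, 1.30, 0.829 and 0.708 in females 13, 14, 15 and 31 (1.01 ± 0.287, SD, n = 4). In maturation they ran from 0.493 in female 28 through a median of 0.519 to 0.678 in female 26 (0.562 ± 0.0856, SD, n = 6). Every post-vitellogenesis female lay below every late vitellogenesis female and above every maturing female, so that the 3 stages did not overlap. At the second step the margin was narrow, with 0.708 in female 31 against 0.678 in maturing female 26. The post-vitellogenesis females formed a high pair, 13 and 14, and a low pair, 15 and 31. The log2 difference from late vitellogenesis was -0.56 (standard error 0.19 from limma) in post-vitellogenesis and -1.38 (standard error 0.18) in maturation, and the step from post-vitellogenesis to maturation amounted to -0.82 (standard error 0.16). These correspond to 1.47-fold, 2.60-fold and 1.76-fold lower levels. A fall without overlap at both steps was found for 3 of the 8077 clones, or 0.0371%. Of these, the listed ones were the sulfotransferase-like clone and aromatase clone tcac0004.f.21. The study had placed both in cluster 1, high in late vitellogenesis, low in maturation and intermediate or variable in post-vitellogenesis. For them the pattern is thus in part built in.

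For cyp1a3, ratios of 1.17, 1.35 and 1.58 were measured in late vitellogenesis females 2, 3 and 4 (1.37 ± 0.204, SD, n = 3). Females 13, 14, 15 and 31 had 1.24, 1.73, 1.25 and 0.899 (1.28 ± 0.343, SD, n = 4). Maturing females ranged from 0.705 in female 28 through a median of 0.842 to 0.954 in female 30 (0.833 ± 0.0983, SD, n = 6). The highest level of all was thus in post-vitellogenesis female 14, and the lowest value of that stage, in female 31, was below those of maturing females 26 and 30. No maturing female reached the lowest late vitellogenesis female. The log2 difference was -0.71 (standard error 0.17) between late vitellogenesis and maturation, -0.59 (standard error 0.16) between post-vitellogenesis and maturation and -0.12 (standard error 0.19) between the first 2 stages, the last being smaller than its own error. A cDNA probe of this gene can also bind transcripts of the closely related trout CYP1A copy, so the values may hold both.

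The glutathione S-transferase P-like clone had ratios of 1.96, 2.39 and 2.35 in females 2, 3 and 4 (2.23 ± 0.241, SD, n = 3). In post-vitellogenesis they were 1.97, 2.23, 2.56 and 1.40 in females 13, 14, 15 and 31 (2.04 ± 0.489, SD, n = 4). During maturation they ran from 1.12 in female 27 through a median of 1.24 to 1.49 in female 29 (1.25 ± 0.138, SD, n = 6). Females 13, 14 and 15 lay within or above the range of late vitellogenesis, and female 31 fell below maturing female 29. The level was 1.78-fold lower in maturation than in late vitellogenesis (log2 difference -0.83, standard error 0.16) and 1.60-fold lower than in post-vitellogenesis (-0.68, standard error 0.15). The difference between the 2 earlier stages was -0.16 (standard error 0.18).

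The glutathione peroxidase 4-like clone was low and even before maturation, with ratios of 0.727, 0.755 and 0.828 in females 2, 3 and 4 (0.770 ± 0.0521, SD, n = 3). Females 13, 14, 15 and 31 had 0.785, 0.797, 0.588 and 0.646 (0.704 ± 0.103, SD, n = 4). In maturation the ratio was 0.943 in female 28, 1.88 in female 26, 1.95 in female 27, 2.47 in female 25, 2.58 in female 29 and 2.84 in female 30 (2.11 ± 0.681, SD, n = 6, median 2.21). All maturing females were above all earlier ones, but female 28 only slightly so, and the highest maturing female was 3.01-fold above the lowest. The log2 difference from late vitellogenesis was 1.37 (standard error 0.25) and that from post-vitellogenesis 1.51 (standard error 0.23), or 2.59-fold and 2.85-fold higher levels. Before maturation the stages differed by -0.14 (standard error 0.27), with overlapping females. Leaving out female 28 raised the fold over the 7 earlier females from 2.74 to 3.18. The salmonid genome holds duplicated copies of many genes, and which copy of the glutathione enzymes bound to these 2 clones was not tested.

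**Figure D2:**
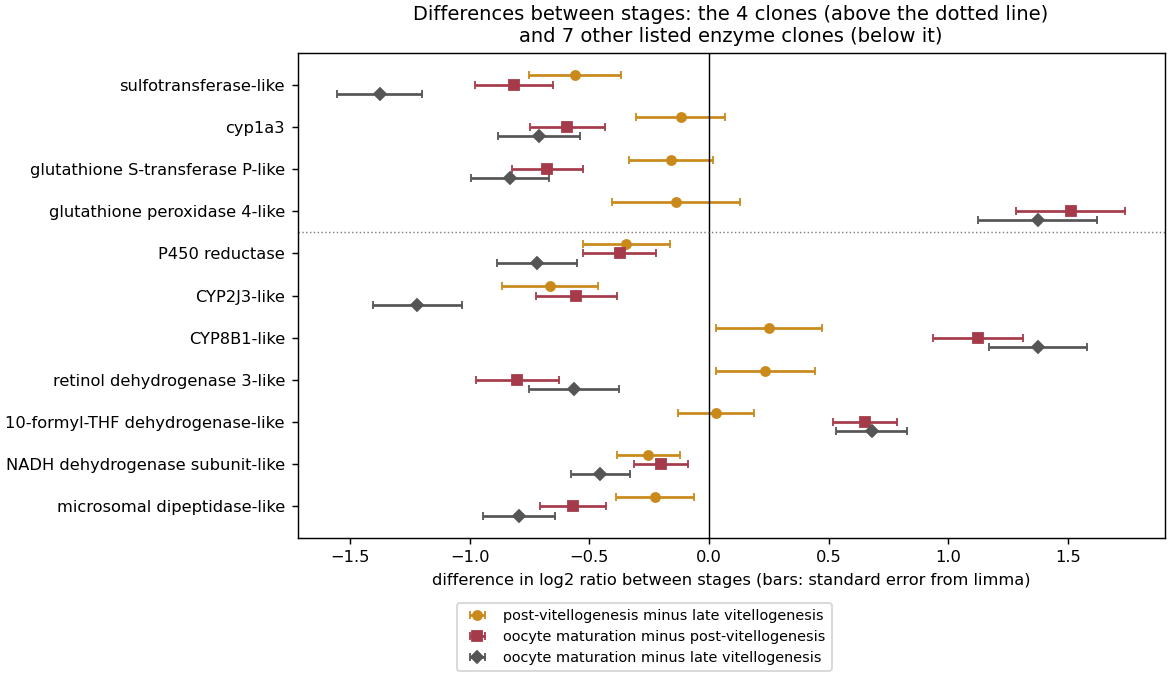
Difference in log2 ratio between each pair of stages (horizontal axis, points, with the standard error from limma as bars) for the 4 clones above the dotted line and 7 other listed enzyme clones below it. The glutathione peroxidase 4-like clone is at 1.37 and 1.51 for maturation and at -0.14 before it, whereas the sulfotransferase-like clone is below 0 in each comparison.

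Across the array, limma called 8.85% of the clones kept between the 7 earlier and the 6 maturing females (adjusted p under 0.05, two-sided), 4.04% between late vitellogenesis and maturation, 4.57% between post-vitellogenesis and maturation and 0.0248% between late vitellogenesis and post-vitellogenesis. All 4 enzyme clones were called in each of the first 3 comparisons and 0 of 4 in the last. Leaving out 1 female lowered the count to as few as 2 against late vitellogenesis (without female 3 or 4) and as few as 2 against post-vitellogenesis (without female 14 or 15), where the calls of cyp1a3 and the glutathione S-transferase P-like clone were lost. Females did not overlap for 3.42%, 10.1%, 5.66% and 4.93% of the clones in the same order of comparisons, and for 2, 4, 2 and 1 of the 4 enzyme clones. Since the same contrasts chose these clones, nothing is read from the counts. Within the change between the 7 earlier and the 6 maturing females, 18 clones fell by more than the sulfotransferase-like clone, 62 by more than the glutathione S-transferase P-like clone and 98 by more than cyp1a3, and 25 rose by more than the glutathione peroxidase 4-like clone.

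SAM sets a difference against the spread within stages, and the clusters were formed by correlation over these same arrays, so that differences between females of 1 stage entered the choice of the clones too. Their spread and the place of single females are likewise descriptions. The SD of log2 ratios within stages, pooled over the 3 stages, was 0.43 for the glutathione peroxidase 4-like clone, above that of 96.1% of the clones kept. It was 0.28 for the sulfotransferase-like clone, 0.26 for cyp1a3 and 0.24 for the glutathione S-transferase P-like clone, where the median clone had 0.21. The stage of the widest spread differed between the enzymes. For the peroxidase clone it lay in maturation (SD of log2 ratios 0.58, above 98.4% of the clones), and in late vitellogenesis the SD was 0.10, above 19.1% of them. For the 3 cluster 1 enzymes it lay in post-vitellogenesis, with SDs of 0.42 (sulfotransferase-like), 0.39 (cyp1a3) and 0.37 (glutathione S-transferase P-like), above 95.4%, 93.5% and 92.5% of the clones. The study describes cluster 1 as intermediate or variable in that stage, so this spread is in part built in. There P450 reductase, CYP2J3-like and retinol dehydrogenase 3-like, also in cluster 1, were above 92.0%, 94.9% and 97.9%. The NADH dehydrogenase subunit-like and microsomal dipeptidase-like clones were above 55.0% and 71.5%. In maturation, the CYP8B1-like and 10-formyltetrahydrofolate dehydrogenase-like clones of cluster 2 were above 94.9% and 70.7%.

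**Figure D3:**
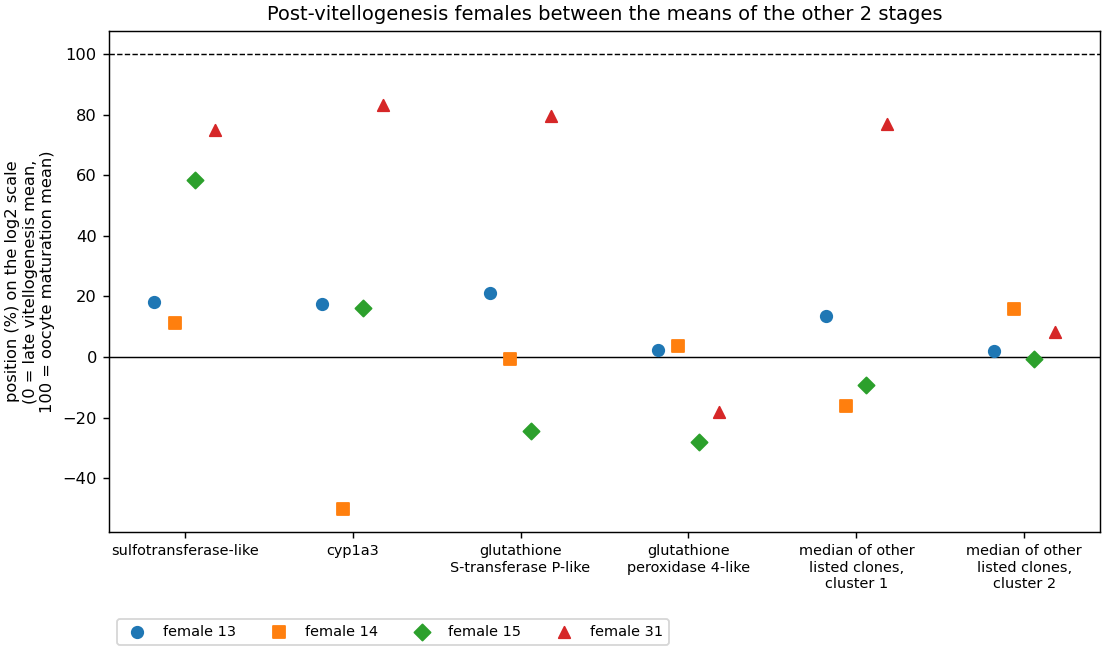
Position of each post-vitellogenesis female between the mean log2 ratio of late vitellogenesis (0%) and that of maturation (100%), in percent (vertical axis), for the 4 clones and for the median of the other listed clones of clusters 1 and 2. Female 31 lies between 74.9% and 83.3% for the 3 cluster 1 enzymes, and female 15 is at 58.3% for the sulfotransferase-like clone alone.

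To compare the post-vitellogenesis females, each was placed between the mean log2 ratio of late vitellogenesis (0%) and that of maturation (100%). Female 31 was at 74.9% for the sulfotransferase-like clone, 83.3% for cyp1a3 and 79.7% for the glutathione S-transferase P-like clone, and the median of the other 29 cluster 1 clones was 77.0% (46.4% to 139%). Female 31 was the lowest of its stage for 27 of those 29 clones. Since cluster 1 was formed by correlation over arrays that included female 31, such a likeness is in part built in. For the glutathione peroxidase 4-like clone the same female was at -18.2%, below the late vitellogenesis mean, and the median of the other 42 cluster 2 clones analysed was 8.15%. Female 15 had a different pattern. Its sulfotransferase-like level was at 58.3%, whereas cyp1a3 was at 16.2%, the glutathione S-transferase P-like clone at -24.2% and the median of the other cluster 1 clones at -9.17%. Only 2 of these 29 clones were farther toward maturation in female 15, in which aromatase clone tcac0004.f.21 was still at a ratio of 13.4. Female 14 was at -50.1% for cyp1a3, beyond the late vitellogenesis mean, and at 11.4% and -0.736% for the sulfotransferase-like and glutathione S-transferase P-like clones. Female 13 differed little between the 3 enzymes, with 18.3%, 17.5% and 21.1%.

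**Figure D4:**
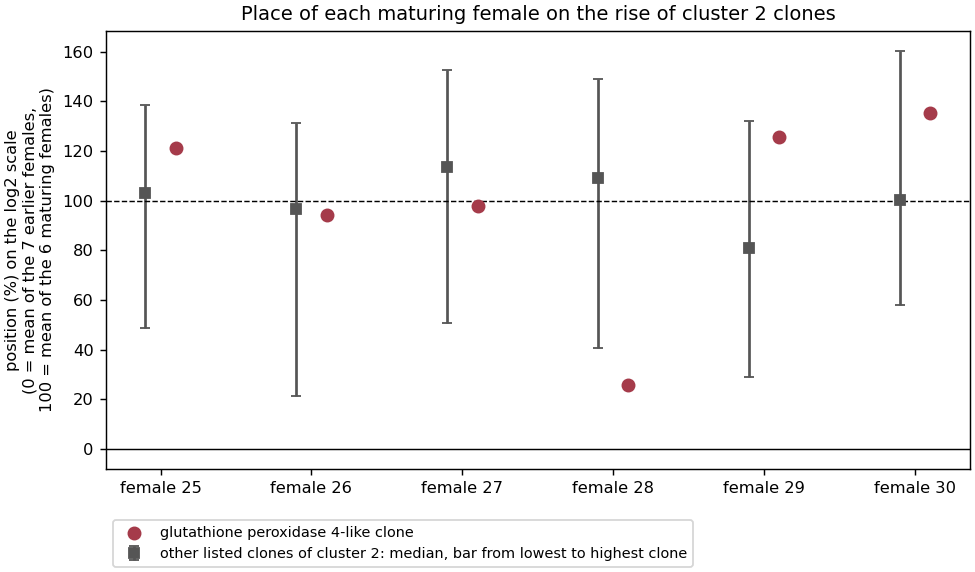
Position of each maturing female between the mean log2 ratio of the 7 earlier females (0%) and that of the 6 maturing females (100%), in percent (vertical axis), for the glutathione peroxidase 4-like clone (circles) and for the other 42 listed clones of cluster 2 (squares, median, with bars from the lowest to the highest clone). In female 28 the peroxidase clone, at 25.7%, lies below all 42 other clones, and in females 25, 29 and 30 it is above 39 of them. For each clone the 6 places average 100% by construction, so a low place in female 28 raises the others.

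The maturing females were placed in the same way between the mean of the 7 earlier females (0%) and that of maturation (100%). In female 28 the glutathione peroxidase 4-like clone was at 25.7%, and the other 42 cluster 2 clones had a median of 109% (40.7% to 149%), none of them below it. The median clone of the cluster thus was above the maturation mean on the array of female 28, and the peroxidase clone was far below it. The arrays of females 28 and 30, the lowest and the highest for this clone, were also the pair of lowest correlation named above, and its part in these values was not tested. The next lowest was the clone similar to 10-formyltetrahydrofolate dehydrogenase (1RT110O02_C_H01), an enzyme of the folate pathway that produces NADPH, at 40.7%. In females 25, 29 and 30 the peroxidase clone was at 121%, 126% and 135%, above 39 of the 42 clones in each. The places of the maturing females average 100% for each clone by construction. The low place of female 28 thus raises those of the other maturing females, and these high places are not a separate observation. Female 28 was also the lowest maturing female for the sulfotransferase-like clone and cyp1a3, at 117% and 136% of the way down, and in all for 3 of the 4 enzymes. For the sulfotransferase-like clone and cyp1a3 the lowest place is the farthest toward maturation, and for the peroxidase clone it is the least far. Female 28 was the lowest for 3 of the other 42 cluster 2 clones, 5 of the other 29 cluster 1 clones and 1550 of the 8077 clones kept. Female 30, the highest for the peroxidase clone and cyp1a3, was the highest for 8 of these 42 and 6 of these 29. Of the 8077 clones kept it was the highest for 2864 and the lowest for 1805, both the most of the 6 maturing females.

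Among the other 88 listed clones analysed, the 1 most like the sulfotransferase-like clone over the 13 arrays was cyp1a3 (Pearson r = 0.907 of log2 ratios), followed by a clone similar to the exosome component RRP40, which takes part in RNA decay (r = 0.883). Of all clones kept, 3 had a higher r with the sulfotransferase-like clone than cyp1a3, and 14 a higher r than the RRP40-like clone. With the mean of each stage taken away, r between the sulfotransferase-like clone and cyp1a3 was 0.783. In the same way r was 0.588 between cyp1a3 and the glutathione S-transferase P-like clone and 0.345 between the latter and the sulfotransferase-like clone. The peroxidase clone had r of -0.66, -0.60 and -0.69 with the sulfotransferase-like, cyp1a3 and glutathione S-transferase P-like clones over all arrays, and 0.411, 0.408 and 0.302 with the stage means taken away. The negative values thus held over all arrays and not within stages. For cyp1a3 itself the nearest listed clones were similar to mitochondrial ribosomal protein S30 (r = 0.940) and ribosomal protein L4-A (r = 0.922). Of all clones kept, 5 and 12 had a higher r with cyp1a3 than these, respectively. Among listed clones, the glutathione S-transferase P-like clone was nearest to those similar to a phospholipid-transporting ATPase (r = 0.949) and to tropomyosin 4 (r = 0.938), a partner of actin filaments. Here 1 and 3 of all clones kept had a higher r, respectively. These values are descriptions across arrays that share the stage differences by which the clones were listed.

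The glutathione peroxidase 4-like clone was nearest to the 10-formyltetrahydrofolate dehydrogenase-like clone (r = 0.945) and to a clone similar to the actin-binding protein caldesmon (r = 0.928). None of the other clones kept had a higher r with it than the dehydrogenase-like clone, and 7 had an r over 0.9. The dehydrogenase-like clone had ratios of 0.541 to 0.658 in the 7 earlier females. Among the maturing females it was lowest in female 28 (0.702) and highest in female 30 (1.22), with 0.830, 0.888, 0.931 and 1.05 in females 26, 27, 25 and 29. The 6 maturing females thus had the same order for both clones. This likeness is in part built in, since the dehydrogenase-like clone was picked by its r over these same arrays. For the other enzymes, 4 (sulfotransferase-like), 31 (cyp1a3) and 35 (glutathione S-transferase P-like) clones had an r over 0.9.

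For comparison, 7 other listed enzyme clones were taken: P450 enzymes other than aromatase and their reductase, dehydrogenases and a dipeptidase of glutathione breakdown. They are not all the oxidizing enzymes listed, and the study chose them on the same arrays. Between the 7 earlier and the 6 maturing females, 330 of the 8077 clones kept were called higher and 385 lower. Of the 7 enzyme clones, 2 were called higher, 4 were called lower and 1 was not called. Both that were higher belong, like the peroxidase, to cluster 2: the clone similar to CYP8B1, a sterol hydroxylase of bile acid synthesis in mammals (tcac0005.m.05, log2 difference 1.23, standard error 0.16), and the 10-formyltetrahydrofolate dehydrogenase-like clone (0.66, standard error 0.11). Lower were NADPH-cytochrome P450 reductase (tcba0022.f.09), which passes electrons to CYP1A and other microsomal P450 enzymes (-0.52, standard error 0.14), the CYP2J3-like clone (tcac0006.f.17, -0.84, standard error 0.18), the retinol dehydrogenase 3-like clone (tcbk0003.k.18, -0.70, standard error 0.15) and the microsomal dipeptidase-like clone (tcbk0039.a.06, -0.66, standard error 0.12). The dipeptidase acts in the breakdown of glutathione. The 3 late vitellogenesis females had a mean ratio of 0.580 ± 0.0215 (SD) and the 4 post-vitellogenesis females 0.501 ± 0.0809. The 6 maturing females had 0.338 ± 0.0554. Maturing female 25, at 0.4173, was only just below post-vitellogenesis female 31, at 0.4174, so that these groups came close without overlapping. The clone similar to an NADH dehydrogenase subunit had a log2 difference of -0.31 (standard error 0.10) and was not called.

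Against late vitellogenesis alone, 2 of the 7 were called higher and 4 lower in maturation, and against post-vitellogenesis 2 were called higher and 2 lower. P450 reductase was among those not called in the latter comparison, with a log2 difference of -0.37 (standard error 0.15), where cyp1a3 had -0.59. At the step from late vitellogenesis to post-vitellogenesis limma called 0 of these 7. The largest change at that step was that of the CYP2J3-like clone, -0.66 (standard error 0.20), beside -0.56 for the sulfotransferase-like clone. Over all clones kept, the median log2 difference was 0.02, 0.03, 0.01 and 0.03 in the comparisons of maturation with the earlier females, with late vitellogenesis and with post-vitellogenesis, and of the first 2 stages.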

How the data were processed

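Probes made from total RNA of each ovary with phosphorus-33 were applied to 1 nylon membrane per female. The authors hybridized a vector oligonucleotide to measure the DNA in each spot, and excluded spots where its signal was low. They corrected each remaining signal for the DNA in the spot, divided it by the median of the array and deposited a ratio per spot. Whether the values of 0 come from that exclusion was not tested. Of 9216 spots, 64 water spots, 128 spots of 1 control name and 1 other spot were left out, and of the remaining 9023 clones the 8077 above 0 on all arrays were kept. Their log2 ratios were compared between stages with limma 3.58.1 in R 4.3.3 (adjusted p under 0.05, Benjamini-Hochberg over all clones kept), without blocks, since the labels give no batch. Pairs of stages were contrasted in 1 fit of all 3 stages, and a separate 2-group fit set the 7 earlier females against the 6 maturing ones. The methods used SAM, which was not run here. Folds are ratios of geometric means, levels of different clones were not compared, and the number of arrays limits the precision. Of the 90 clones listed in the clusters, 89 were analysed. The text names the 4 enzymes, 7 other listed enzyme clones, for each of the 4, the 2 listed clones of highest Pearson r, and both aromatase clones as a cell type marker. Clones outside the listed ones are not named here. The members and these lists were chosen with earlier results of these data known.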

Additional observations from a re-analysis of the deposited data

How the results depend on the processing

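Each log2 difference was recomputed with log2(ratio + 0.1) over all clones, with clones of a mean ratio of at least 0.5, after quantile normalization, with each array centred on its median, from arithmetic means, with array weights, with only the 2 groups compared in the fit, and without each female. Between the 7 earlier and the 6 maturing females, where the fit of the 2 groups is the one reported, all 4 enzymes were called in every setting that gave a call (arithmetic means gave none), with folds of 1.92 to 2.26 (sulfotransferase-like), 1.49 to 1.66 (cyp1a3) and 1.62 to 1.79 (glutathione S-transferase P-like) lower and 2.47 to 3.18 (glutathione peroxidase 4-like) higher. Signs changed only between late vitellogenesis and post-vitellogenesis, where without female 31 the log2 difference was 0.04 for cyp1a3 and 0.01 for the glutathione S-transferase P-like clone. With 1 female left out, 2 to 4 of the enzymes were called against late vitellogenesis and 2 to 4 against post-vitellogenesis. The sulfotransferase-like and peroxidase clones were called in every fit of these comparisons. Since the same contrasts chose the 4 clones, calls that hold over settings are a description and no support. The mean ratio filter, the 2 groups alone and leaving out a female of a stage not compared leave each log2 difference unchanged by construction. The call of cyp1a3 was lost against late vitellogenesis without female 3, 4 or 28 and with log2(ratio + 0.1), and against post-vitellogenesis without female 13, 14, 15, 25, 27, 28 or 29, with log2(ratio + 0.1), after quantile normalization and with the 2 groups alone. That of the glutathione S-transferase P-like clone was lost without female 3 or 4 and without female 14 or 15, respectively. Over all clones, the 715, 326, 369 and 2 calls became 1123, 1355, 974 and 22 with array weights, and 495 to 815, 121 to 439, 149 to 536 and 0 to 4 with 1 female left out. The calls against late vitellogenesis were 187 with log2(ratio + 0.1), those against post-vitellogenesis 239 after quantile normalization, and those between the first 2 stages 1 after quantile normalization and 1 with the 2 groups alone. The cause of these changes was not tested. A list of further detoxification clones by annotation was not run. No paired analysis was possible because the stages came from different females.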
